A study of Homo sapiens with 10 samples.

Results

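The genes described here are the matrix metalloproteinases (MMP), the ADAM and ADAMTS metalloproteases and the tissue inhibitors of metalloproteinases (TIMP). They were taken as the protein-coding rows of the deposited gene table whose symbol is MMP, TIMP, ADAM or ADAMTS followed by a number. This gave 65 of 58735 genes, with 22 MMP, 20 ADAM, 19 ADAMTS and 4 TIMP genes. The cells were CH157-MN, an established human meningioma line. PBS libraries (n = 5) came from cells given phosphate-buffered saline, and ADC libraries (n = 5) from cells given 100 nM of a humanised antibody-drug conjugate against SSTR2 that carries the tubulin inhibitor MMAF. The treated cells were collected on day 3, and no day is stated for the PBS cells. No other allele or agent is listed for either group. The labels do not say that replicates were separate cultures, so the p-values measure the spread between these libraries, which may be technical, in a single cell line.

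MMPs are secreted or membrane-bound zinc proteases that cut matrix proteins such as collagens and laminins. They are made as inactive precursors. ADAM proteases sit in the cell membrane and release the outer parts of growth factors, cytokines and receptors, while ADAMTS proteases are secreted and cut proteoglycans and other matrix proteins. TIMPs block the active site of these enzymes, and the TIMPs differ in which enzymes they hold. MMP14, a membrane protease, activates the gelatinase MMP2 at the cell surface in a complex that TIMP2 bridges, and TIMP3 binds to the matrix and inhibits several ADAM and ADAMTS proteases as well as MMPs.

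Library depth ran from 28262162 to 36463724 counts, so 3 counts, the upper limit for a gene with an observed count of 0, equal 0.0823 to 0.106 CPM of the raw library total, for counting error only. All other CPM values (counts scaled to a common library size) also carry the TMM factors. Even numbers made up 65.4% to 67.3% of the counts between 2 and 21; for high counts the share was 49.0% to 50.6%. Whether both ends of a fragment were counted is not known, and if they were, these limits are too low. Of the 9 meningioma and arachnoid markers, VIM and CLDN11 were abundant, while PGR, SLC47A1 and S100B had 0 counts in all libraries and PTGDS and CDH1 had at most 1. SSTR2 itself had 3 to 22 counts per library, and MUC1 had 2 to 33. Of these 9 markers 4 were tested, of which 0 rose and 1 fell. Mean CLDN11 was 389 CPM in PBS and 364 CPM in ADC. Of 11 leukocyte markers 7 had 0 counts in every library, and the list summed to between 0 and 0.559 CPM in PBS and 0.301 to 0.556 CPM in ADC libraries. The 7 fibroblast genes summed to 163 to 184 CPM in PBS and 191 to 239 CPM in ADC libraries, and all 5 that were tested rose. Most of the fibroblast sum came from COL1A1, at a mean of 156 CPM in PBS and 192 CPM in ADC, which is also a matrix substrate below. DCN, the fibroblast proteoglycan decorin, had at most 2 counts. The 5 endothelial genes summed to 1.42 to 2.998 CPM in PBS and 3.25 to 4.84 CPM in ADC libraries, and 1 of the 3 tested rose. The 5 epithelial genes, mostly KRT18, summed to 209 to 240 CPM in PBS and 215 to 228 CPM in ADC libraries. Of the 2 epithelial genes tested, 0 were called. The fibroblast and endothelial sums moved with the treatment, and their part in the results on the members was not tested.

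TIMP3, MMP14 and ADAM8 are shown by the DNA just upstream of their start sites because they rose, stand for the inhibitor, MMP and ADAM groups, and had an entry in the RefSeq promoter table (GRCh38.p14). Each sequence runs 5′ to 3′ on the gene's own strand and ends before the transcript start. Capitals mark a GC box (GGGCGG) or a CCAAT box (CCAAT) on either strand, and these motifs did not overlap each other.
TIMP3, chr22:32801455-32801700, plus strand: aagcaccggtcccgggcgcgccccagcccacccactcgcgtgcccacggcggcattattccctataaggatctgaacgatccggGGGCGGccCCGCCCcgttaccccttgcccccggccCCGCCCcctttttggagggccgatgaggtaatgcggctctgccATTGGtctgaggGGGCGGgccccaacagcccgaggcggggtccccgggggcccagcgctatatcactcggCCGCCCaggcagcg
MMP14, chr14:22836335-22836556, plus strand: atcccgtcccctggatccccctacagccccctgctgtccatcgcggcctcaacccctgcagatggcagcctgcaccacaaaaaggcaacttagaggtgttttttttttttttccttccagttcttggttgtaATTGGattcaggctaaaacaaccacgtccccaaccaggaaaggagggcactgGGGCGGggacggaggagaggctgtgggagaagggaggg
ADAM8, chr10:133276869-133277118, minus strand: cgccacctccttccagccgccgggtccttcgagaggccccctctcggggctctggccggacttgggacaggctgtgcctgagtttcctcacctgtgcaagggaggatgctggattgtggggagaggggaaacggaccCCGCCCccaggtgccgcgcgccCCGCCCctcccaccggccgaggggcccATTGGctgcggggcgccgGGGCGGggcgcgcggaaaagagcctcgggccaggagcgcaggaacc

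In the 250 bases before the RefSeq start, TIMP3 had 5 GC boxes and 1 CCAAT box, MMP14 had 1 of each and ADAM8 had 3 GC boxes and 1 CCAAT box. GC content of that window was 72.4% for TIMP3, 56.8% for MMP14 and 73.6% for ADAM8. A GC box was found in 42.6% of 35116 promoter windows of that length and a CCAAT box in 32.0%, and in 25 and 16 of the 38 members with an entry. TATAAA was found in 10.7% of all windows and in 7 member windows. The AP-1 motif TGANTCA was found in 6.57% of all windows and in those of ADAMTS12, MMP7, MMP10 and MMP20. The RefSeq start of ADAMTS12 lies 202 bases inside the deposited gene. Its match begins 84 bases before that start, thus within the deposited gene. The windows of TIMP3, MMP14 and ADAM8 held neither TGANTCA nor TATAAA. Such matches are letters in a window and do not show binding.

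After ADC, TIMP3, MMP2, MMP14, MMP17, ADAMTS12 and ADAM8 rose and ADAMTS1 fell. TIMP3 was 1.73-fold higher and made the largest difference in CPM of the 65 members. The ADAM sheddases ADAM9, ADAM10 and ADAM17 and the inhibitors TIMP1 and TIMP2 were well measured and were not called. Of the 65 members, 31 passed the filter on low counts and were tested. Of these 31, 6 rose (background 10.8% of 14504 genes), 1 fell (background 10%) and 24 were not called, so 22.6% were called where 20.8% of all tested genes were. The share of members called was near that of all genes. With scaling to library size alone, 63.3% of all calls were higher, where it was 51.8% here, and 6 members rose and 1 fell under that scaling too. The median log2 fold change was 0.07 over the tested members and -0.00 over all genes. Of the 17 members with a mean of at least 5 CPM, 5 rose and 1 fell, or 35.3%, where 26.7% of 10092 genes at that level were called (13.0% higher and 13.7% lower). In these bulk libraries a change in the number of cells that express a gene and a change in RNA per cell cannot be told apart.

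**Figure D1:**
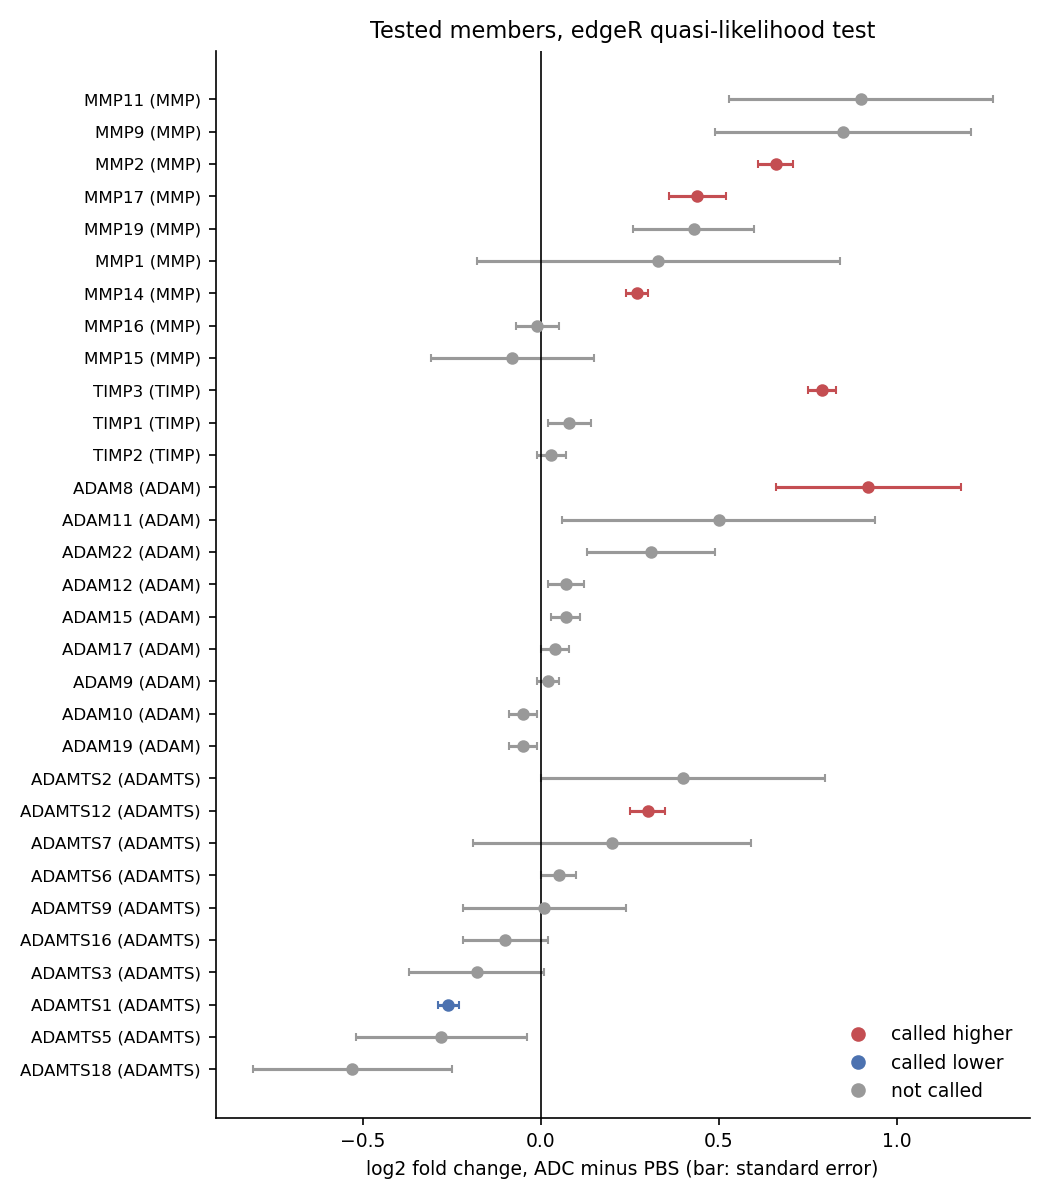
Log2 fold change (ADC minus PBS, horizontal axis) of the 31 tested members, grouped by family, with the standard error as bars. The 6 members called higher are red, ADAMTS1, called lower, is blue, and the 24 members not called are grey, with the widest bars at genes of low count such as MMP1 and ADAM11.

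Among the inhibitors, TIMP3 (ENSG00000100234, chromosome 22, 32801701 to 32863043, hg38) was measured at 189, 186, 198, 184 and 187 CPM in PBS replicates 1 to 5 and at 350.5, 336, 311, 306.5 and 326 CPM in ADC replicates 1 to 5. The lowest ADC library lay far above the highest PBS library. Means were 189 ± 6 CPM in PBS and 326 ± 18 CPM in ADC (SD, n = 5 per group), and the log2 fold change of TIMP3 was 0.79 (SE 0.04, edgeR quasi-likelihood test with Benjamini-Hochberg adjustment, adjusted p = 1.7e-16). TIMP3 lies within SYN3, a synapsin gene on the other strand, with which it shares no exonic base. SYN3 had 0 to 1 counts in PBS and 0 to 7 counts in ADC libraries.

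TIMP1, a soluble inhibitor of many MMPs, was at 52.8, 63.5, 59.3, 52.05 and 56.4 CPM in PBS and 57.9, 60.4, 59.2, 54.3 and 68.7 CPM in ADC libraries. The groups overlapped, and the log2 fold change of 0.08 (SE 0.06, 95% interval -0.05 to 0.21) did not pass (edgeR adjusted p = 0.36). TIMP2, the inhibitor that bridges MMP14 and pro-MMP2, was at 152, 158, 144, 158 and 160 CPM in PBS and 160, 153, 158, 165 and 151 CPM in ADC libraries. These values overlapped almost wholly. The log2 fold change of TIMP2 was 0.03 (SE 0.04, 95% interval -0.06 to 0.11, edgeR adjusted p = 0.69). TIMP4 had 0 to 3 counts in PBS and 0 to 4 counts in ADC libraries and was not tested. Like TIMP3, TIMP1 and TIMP4 lie within synapsin genes on the other strand, SYN1 and SYN2, and neither synapsin gene exceeded 5 counts in any library.

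**Figure D2:**
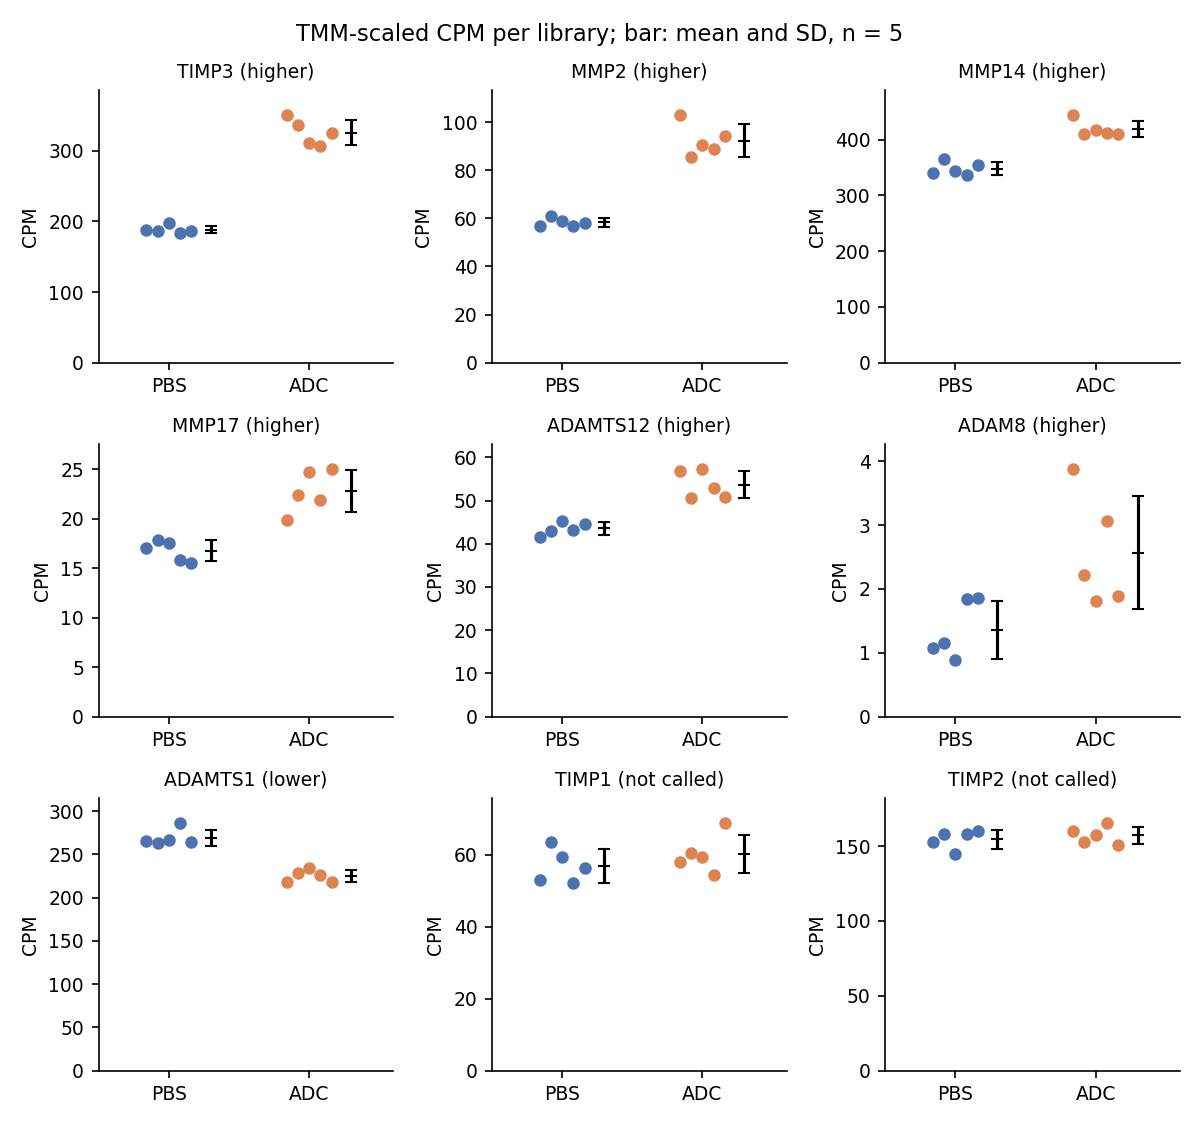
TMM-scaled CPM (vertical axis, from 0) in each of the 5 PBS and 5 ADC libraries for the 7 called members and for TIMP1 and TIMP2, with mean and SD as black bars. Groups are apart for TIMP3, MMP2, MMP14, MMP17, ADAMTS12 and ADAMTS1, and overlap for ADAM8, TIMP1 and TIMP2.

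The makeup of the TIMP transcripts differed with TIMP3. Per length, measured as CPM per kilobase of the deposited gene length, TIMP3 made up 36.9% to 40.2% of the summed TIMP level in PBS and 49.8% to 53.6% in ADC libraries. The share of TIMP1 was 33.2% to 37.6% in PBS against 26.4% to 31.35% after ADC, and that of TIMP2 was 23.9% to 27.6% and 18.9% to 22.4%. These shares do not add independent evidence, since they follow from the 3 levels given above. Their size also depends on the gene lengths, which merge all annotated exons.

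Of the secreted MMPs, MMP2 (ENSG00000087245, chromosome 16, 55389700 to 55506691), the gelatinase that cuts type IV collagen, was at 56.8, 60.9, 58.9, 56.9 and 58.1 CPM in PBS and 103, 85.4, 90.4, 88.85 and 94.2 CPM in ADC libraries. Every ADC library was above every PBS library. The mean went from 58.3 ± 1.7 to 92.4 ± 6.7 CPM (SD, n = 5 per group), a 1.58-fold increase, with a log2 fold change of 0.66 (SE 0.05, edgeR adjusted p = 3.8e-12). Another gene on the same strand covers 3.53% of the exonic bases of MMP2.

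The other gelatinase, MMP9, was low. It was at 0.803, 0.771, 0.715, 0.141 and 0.854 CPM in PBS and 0.983, 1.37, 1.26, 1.202 and 1.16 CPM in ADC libraries. The groups did not overlap, but with 4 to 50 counts per library the log2 fold change of 0.85 (SE 0.36) did not pass (edgeR adjusted p = 0.097). Exons of a gene on the other strand cover 18.4% of those of MMP9, and the counts cannot be split by strand here.

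Membrane-type MMPs were led by MMP14 (ENSG00000157227, chromosome 14, 22836557 to 22849027), the activator of MMP2. It was at 339, 366, 344, 337 and 354.5 CPM in PBS and 444, 410, 418, 412 and 411 CPM in ADC libraries. The groups were apart, with ADC replicate 1 the highest. Means were 348 ± 12 and 419 ± 14 CPM (SD, n = 5 per group), and MMP14 rose by 0.27 on the log2 scale (SE 0.03, edgeR adjusted p = 3.0e-07).

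MMP17 (ENSG00000198598, chromosome 12, 131828393 to 131851783), which a lipid anchor holds at the cell surface, was at 17.1, 17.9, 17.5, 15.8 and 15.5 CPM in PBS and 19.9, 22.4, 24.7, 21.9 and 25.0 CPM in ADC libraries. Again the groups did not overlap. The mean went from 16.8 ± 1.0 to 22.8 ± 2.1 CPM (SD, n = 5 per group), with a log2 fold change of 0.44 (SE 0.08, edgeR adjusted p = 8.5e-05). MMP16, another membrane-type MMP, was at 39.2, 34.5, 39.2, 39.3 and 36.1 CPM in PBS and 37.2, 39.7, 35.9, 39.1 and 34.7 CPM in ADC libraries. The groups of MMP16 overlapped (log2 fold change -0.01, SE 0.06, 95% interval -0.14 to 0.12, edgeR adjusted p = 0.91). MMP15, also membrane-bound, was at 1.52, 1.99, 1.94, 2.16 and 1.53 CPM in PBS and 1.71, 1.203, 1.75, 1.89 and 2.10 CPM in ADC libraries. MMP15 was not called (log2 fold change -0.08, SE 0.23, edgeR adjusted p = 0.85).

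MMP19, MMP11 and MMP1 were tested at low counts and were not called. The secreted protease MMP19 was at 3.42, 2.10, 2.90, 2.69 and 3.50 CPM in PBS and 3.85, 3.80, 4.83, 2.89 and 4.31 CPM in ADC libraries. The ranges overlapped, and the log2 fold change was 0.43 (SE 0.17, edgeR adjusted p = 0.079). Without ADC replicate 4, the lowest ADC library, it was 0.52 at an edgeR adjusted p of 0.035, so this library decides the call. Exons of a gene on the other strand cover 17.4% of those of MMP19. MMP11, or stromelysin 3, was at 0.952, 0.178, 0.647, 1.025 and 0.648 CPM in PBS and 1.504, 0.793, 1.78, 1.202 and 1.12 CPM in ADC libraries (log2 fold change 0.90, SE 0.37, edgeR adjusted p = 0.087). The groups of MMP11 overlapped, since ADC replicate 2 lay below PBS replicates 1 and 4. MMP1, the interstitial collagenase, was at 0.357, 0.859, 0.0341, 0.318 and 0.235 CPM in PBS and 0.347, 0.574, 0.234, 0.412 and 0.736 CPM in ADC libraries (0.33, SE 0.51, edgeR adjusted p = 0.72). The groups of MMP1 overlapped, and its log2 fold change was 0.94 without PBS replicate 2, 0.05 without PBS replicate 3 and 0.11 without ADC replicate 5.

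MMP1 belongs to a cluster of 9 MMP genes on chromosome 11, from 102520508 to 102955734. It includes collagenases, stromelysins and matrilysin and was nearly silent in this line. MMP7, MMP12, MMP20 and MMP27 had 0 counts in all 10 libraries, and 29 was the highest count of any of the 9 genes, that of MMP1 in PBS replicate 2. MMP3, stromelysin 1, had 4, 0, 0, 0 and 0 counts in PBS and 6, 9, 6, 14 and 5 counts in ADC libraries. Each ADC library had more MMP3 counts than each PBS library, with sums of 40 against 4. MMP3 was under the filter. It passed in the fit without a filter (edgeR adjusted p = 0.023), where 5.74% of 27020 genes were called higher. If both ends of a fragment were counted, these few counts stand for fewer fragments. The setting with halved counts kept the filter, so MMP3 was not tested under it.

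Among the ADAM proteases, those known for shedding were expressed at levels that overlapped between the groups. ADAM10, which sheds NOTCH receptors and adhesion proteins, was at 177, 167, 186, 184.5 and 184 CPM in PBS and 183, 178, 173, 171 and 163 CPM in ADC libraries. The groups overlapped, with a log2 fold change of -0.05 (SE 0.04, 95% interval -0.13 to 0.04, edgeR adjusted p = 0.40). ADAM17, which releases TNF and ligands of the EGF receptor, was at 85.1, 76.4, 85.1, 88.4 and 78.4 CPM in PBS and 84.1, 85.2, 89.8, 80.8 and 83.7 CPM in ADC libraries. It also overlapped (0.04, SE 0.04, 95% interval -0.07 to 0.14, edgeR adjusted p = 0.62), and 13.6% of its exonic bases are shared with genes on the other strand. ADAM9 (0.02, 212 ± 5 to 215 ± 4 CPM), ADAM12 (0.07, 77.9 ± 3.8 to 81.9 ± 5.9 CPM), ADAM15 (0.07, 83.6 ± 5.9 to 88.1 ± 2.3 CPM) and ADAM19 (-0.05, 139 ± 4 to 134 ± 7 CPM) were not called (SD, n = 5 per group, edgeR adjusted p of 0.26 to 0.65).

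ADAM8 (ENSG00000151651, chromosome 10, 133262403 to 133276868), a membrane protease best known from leukocytes and invasive tumours, was the ADAM gene that rose. It was at 1.07, 1.16, 0.886, 1.84 and 1.86 CPM in PBS and 3.88, 2.21, 1.81, 3.06 and 1.89 CPM in ADC libraries. ADC replicate 3 lay below PBS replicates 4 and 5, so the groups overlapped. The mean went from 1.36 ± 0.45 to 2.57 ± 0.88 CPM (SD, n = 5 per group), with a log2 fold change of 0.92 (SE 0.26, edgeR adjusted p = 0.011). Without ADC replicate 1, the highest library, the log2 fold change was 0.72 and the call was lost at an edgeR adjusted p of 0.066. Of the leukocyte markers with any count, PTPRC had at most 2 counts in a library, ITGAM 2, CD68 9 and CD14 19. The mean of CD14 was 0.136 CPM in PBS and 0.368 CPM in ADC, and its part in the ADAM8 result was not tested. ADAM22 (0.31, SE 0.18, 3.22 ± 0.80 to 3.99 ± 0.56 CPM) and ADAM11 (0.50, SE 0.44, 0.375 ± 0.161 to 0.529 ± 0.183 CPM), neuronal members that lack protease activity, were not called (edgeR adjusted p = 0.23 and 0.47).

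Among the ADAMTS proteases, ADAMTS1 (ENSG00000154734, chromosome 21, 26835747 to 26845409), which cuts the proteoglycans versican and aggrecan, was the member that fell. It was at 266, 263, 267, 286 and 264 CPM in PBS and 218, 228, 235, 226 and 218 CPM in ADC libraries. All ADC libraries were below all PBS libraries, and PBS replicate 4 was the highest. The mean went from 269 ± 9 to 225 ± 7 CPM (SD, n = 5 per group), and ADAMTS1 fell by 0.26 on the log2 scale (SE 0.03, edgeR adjusted p = 7.4e-07). Its neighbour on chromosome 21, ADAMTS5, an aggrecanase from 26917912 to 26966513 on the same strand, was at 2.25 ± 0.32 and 1.85 ± 0.63 CPM and was not called (-0.28, SE 0.24, 95% interval -0.83 to 0.27, edgeR adjusted p = 0.46).

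ADAMTS12 (ENSG00000151388, chromosome 5, 33523535 to 33892192), which cuts cartilage oligomeric matrix protein, was at 41.6, 43.0, 45.2, 43.2 and 44.7 CPM in PBS and 56.9, 50.5, 57.2, 52.9 and 50.85 CPM in ADC libraries. The groups were apart. Means were 43.5 ± 1.4 and 53.7 ± 3.2 CPM (SD, n = 5 per group), and ADAMTS12 rose by 0.30 (SE 0.05, edgeR adjusted p = 4.8e-05). ADAMTS6 was at 43.7 ± 1.9 and 45.4 ± 1.3 CPM and was not called (0.05, SE 0.05, 95% interval -0.06 to 0.17, edgeR adjusted p = 0.51).

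The other tested ADAMTS genes lay under 8 CPM on average and were not called. ADAMTS16 went from 7.17 to 6.67 CPM (log2 fold change -0.10, edgeR adjusted p = 0.62), and ADAMTS3, a procollagen N-proteinase, from 3.23 to 2.85 CPM (-0.18, edgeR adjusted p = 0.57). ADAMTS9 was at 2.31 and 2.33 CPM (0.01, edgeR adjusted p = 0.98), and ADAMTS18 at 1.61 and 1.11 CPM (-0.53, edgeR adjusted p = 0.19). ADAMTS7 was at 0.966 and 1.11 CPM (0.20, edgeR adjusted p = 0.77), and ADAMTS2, another procollagen N-proteinase, at 0.602 and 0.790 CPM (0.40, edgeR adjusted p = 0.54). The 95% intervals of ADAMTS7 (-0.69 to 1.1) and ADAMTS2 (-0.53 to 1.32) include a change as large as that of TIMP3. That of ADAMTS18 (-1.17 to 0.11) includes a change of this size downward.

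The groups did not overlap for 7 of the 31 tested members. ADC was higher for 6 of them, TIMP3, MMP2, MMP14, MMP17, MMP9 and ADAMTS12 (background 7.29% of all tested genes), and lower for ADAMTS1 (background 6.95%). Counted by family, the tested genes that rose were 3 of 9 MMP, 1 of 9 ADAM, 1 of 10 ADAMTS and 1 of 3 TIMP genes, where 10.8% of all tested genes rose. The median log2 fold change was 0.43 over the MMP, 0.07 over the ADAM, -0.04 over the ADAMTS and 0.08 over the TIMP genes that passed the filter. The MMP median is the value of MMP19 (SE 0.17), a gene of low count that was not called.

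Ordered by level per length, MMP14 led in both groups, at 78.0 ± 2.65 CPM per kilobase in PBS and 93.8 ± 3.2 in ADC (SD, n = 5). That length merges all annotated exons of a gene, such as 16168 bases for ADAM10 and 1541 for TIMP1. The order between genes thus depends on the annotation. In PBS the next 3 were TIMP3 (41.0 ± 1.2), ADAMTS1 (38.1 ± 1.3) and TIMP1 (36.9 ± 3.1 CPM per kilobase), whose ranges overlapped between neighbours. In ADC, TIMP3 at 70.8 ± 3.9 CPM per kilobase stood clear of TIMP1 (39.0 ± 3.45), which stood clear of ADAMTS1 (31.9 ± 1.0). ADAMTS1 then overlapped ADAM9. MMP2 went from the ninth place at 11.8 ± 0.3 CPM per kilobase, overlapping ADAM15, to the seventh at 18.7 ± 1.4, overlapping ADAM19. ADAM9 and TIMP2 followed as the fifth and sixth in both groups.

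**Figure D3:**
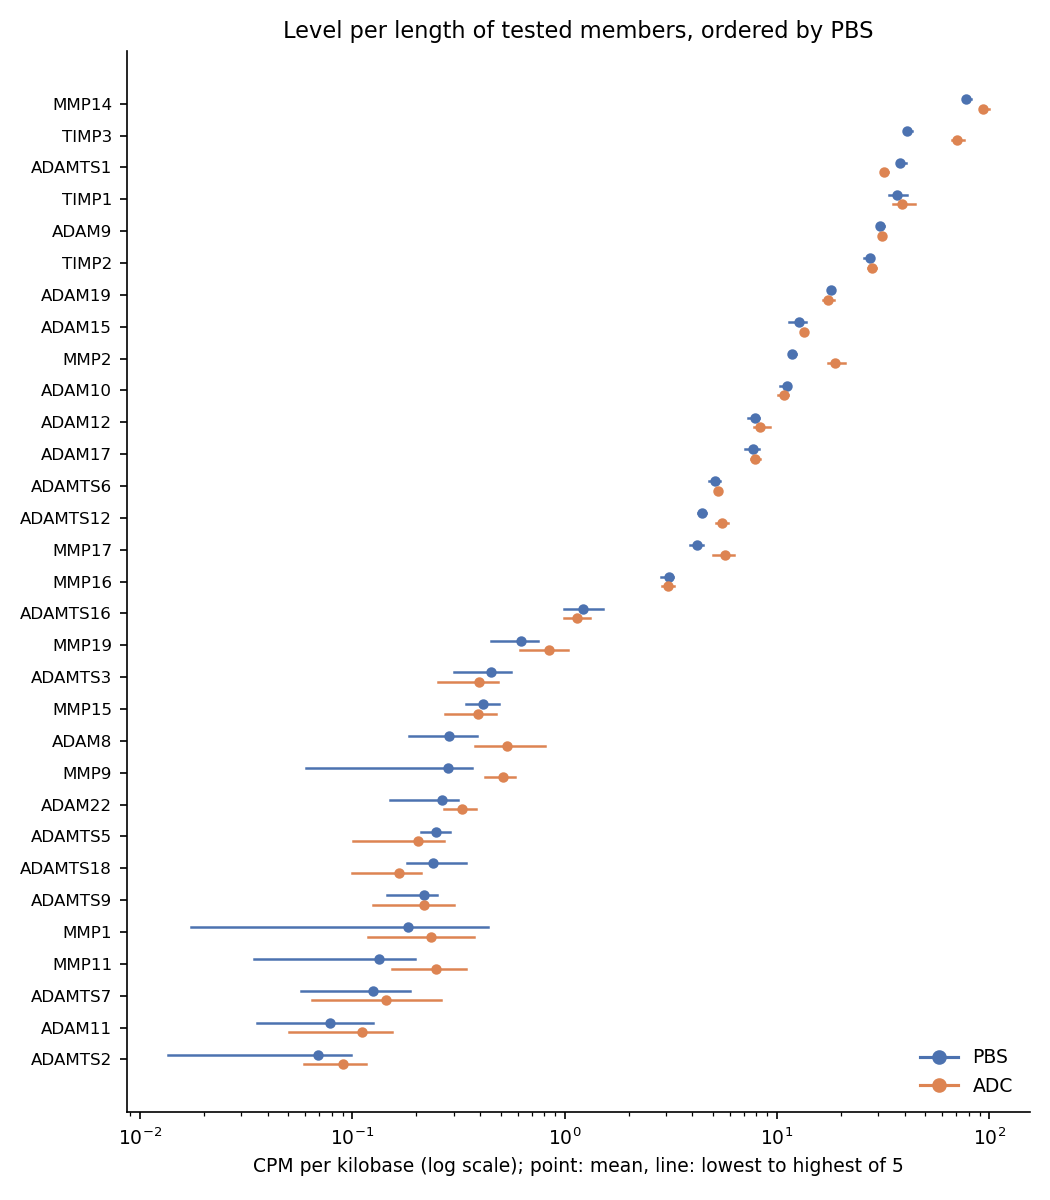
Level per length (CPM per kilobase, log axis) of the 31 tested members, ordered by the PBS mean, with the mean as a point and the lowest to highest of 5 libraries as a line. TIMP3 and MMP2 are displaced to the right in ADC, ADAMTS1 to the left, and lines are long for genes under 1 CPM per kilobase.

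The balance between enzymes and inhibitors was described by ratios within a library. The ratio of MMP2 to TIMP2, per length, was 0.410 to 0.466 with PBS and 0.614 to 0.736 with ADC, and that of MMP14 to TIMP2 was 2.69 to 3.01 and 3.14 to 3.51. Against TIMP3 both ratios were lower with ADC. The ratio of MMP14 to TIMP3 was 1.79 to 2.02 with PBS and 1.26 to 1.39 with ADC, and that of MMP2 to TIMP3 was 0.277 to 0.305 and 0.237 to 0.274. MMP2 and MMP14 were thus higher relative to TIMP2 and lower relative to TIMP3 in each ADC library than in each PBS library. For MMP2 to TIMP3 the ranges of the groups nearly met. The ratios follow from the levels given above and do not add independent evidence. These are ratios of transcript levels, whose size depends on the gene lengths used, and they measure neither protein nor activity.

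Summed over all 65 members, the level was 2007 to 2036 CPM in PBS and 2205 to 2333 CPM after ADC. The difference of the means was 228 CPM, to which TIMP3 contributed 137 CPM, MMP14 70.7 CPM, MMP2 34.1 CPM and ADAMTS1 -44.1 CPM. The MMP genes summed to 468 ± 11 and 580 ± 19 CPM and the TIMP genes to 400 ± 6 and 543 ± 17 CPM (SD, n = 5 per group). The ADAM genes summed to 779 ± 16 and 785 ± 22 CPM, with overlapping ranges, and the ADAMTS genes to 375 ± 11 and 341 ± 8 CPM. Most of the TIMP difference of 143 CPM was that of TIMP3. The ADAMTS difference of -33.5 CPM was smaller in size than the fall of ADAMTS1 alone, while ADAMTS12 rose.

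**Figure D4:**
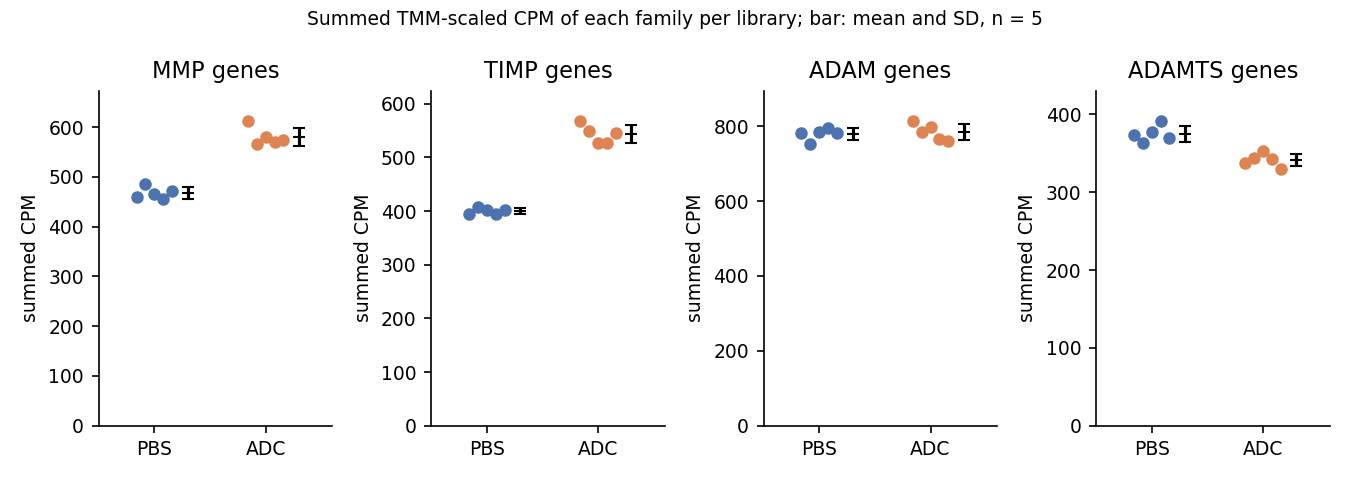
Summed TMM-scaled CPM (vertical axis, from 0) of the MMP, TIMP, ADAM and ADAMTS genes in each library, with mean and SD as black bars. MMP and TIMP sums are higher in all ADC libraries, ADAMTS sums are lower in all of them, and ADAM sums overlap between 752 and 814 CPM.

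The remaining 34 members did not pass the filter, of which 13 had 0 counts in all libraries. Besides the 4 genes of the chromosome 11 cluster, these were MMP26, MMP28, ADAM2, ADAM7, ADAM18, ADAM28, ADAM29, ADAM30 and ADAMTS19, among them ADAM genes known from sperm and testis. The other 21 reached at most 22 counts, in ADAMTS13, the protease of von Willebrand factor. ADAMTS4, an aggrecanase, had 0 counts in every PBS library and 2, 0, 3, 4 and 4 counts in ADC libraries, and it did not pass in the fit without a filter (edgeR adjusted p = 0.066). MMP24 had 2 to 12 counts, while MMP24OS, a gene on the other strand that covers it and shares part of its exons, had 695 to 1079 counts.

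Of 14 tested regulators of these proteases (16 listed), 4 rose, 0 fell and 10 were not called, with a median of 0.13. This is 28.6% called, where 20.8% of all tested genes were called (10.8% higher). Among the 10092 genes with a mean of at least 5 CPM, 26.7% were called. This list and those below were chosen with earlier results of these data known, so their shares are not independent evidence. LRP1, the endocytic receptor that clears MMPs, ADAMTS proteases and TIMP3 from the cell surface, rose from 25.9 ± 2.0 to 39.6 ± 5.3 CPM (log2 fold change 0.61, SE 0.08, edgeR adjusted p = 4.3e-07). TSPAN14, a tetraspanin that escorts ADAM10, rose by 0.37 (SE 0.05), the iRhom RHBDF1, a partner of ADAM17, by 0.46 (SE 0.12) and the proprotein convertase FURIN, which activates many of these proteases, by 0.13 (SE 0.04). The other iRhom, RHBDF2 (0.12, SE 0.06), and the MMP inducer BSG (0.04, SE 0.04) were not called.

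Of 5 tested protease inhibitors other than TIMPs (9 listed), TFPI2 and RECK rose, 0 fell and 3 were not called (40% called against 20.8% of all genes), with a median of 0.51. The list is not limited to inhibitors of metalloproteases. TFPI2, a matrix-bound Kunitz-type inhibitor of serine proteases, rose from 43.7 ± 0.9 to 68.8 ± 2.3 CPM (0.66, SE 0.04, edgeR adjusted p = 2.1e-12). RECK, a membrane-anchored inhibitor of MMPs, rose from 9.26 ± 0.79 to 12.1 ± 0.9 CPM (0.39, SE 0.09, edgeR adjusted p = 0.0030). The 3 inhibitors not called were PAPLN (0.51, SE 0.34), SPOCK1 (0.57, SE 0.52) and CST3 (-0.04, SE 0.05). The median is thus the value of PAPLN, which had 10 to 36 counts. SPOCK1 had 1 to 34 counts, while CST3 was at 71.3 CPM in PBS. Of 7 tested relatives that the naming rule leaves out, PAPPA (0.85, SE 0.09), which cuts IGF binding proteins, the ADAMTS-like gene THSD4 (0.78, SE 0.07) and ADAMTSL1 (0.18, SE 0.04) were higher. The other 4 of these relatives were not called (42.9% called against 20.8%), and the list's median was 0.27. Most tested genes of both lists had a mean of at least 5 CPM, a level at which 26.7% of genes were called.

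Substrates changed in both directions. Of 22 tested membrane proteins known to be shed by ADAM10 or ADAM17, 5 rose and 7 fell (54.5% called against 20.8% of all genes), with a median of -0.01. The adhesion molecule L1CAM (1.95, SE 0.25), the amyloid precursor APP (0.21, SE 0.03), the growth factor TGFA (0.54, SE 0.09), SDC4 (0.19, SE 0.04) and TNFRSF1B (0.53, SE 0.11) rose. Those that fell were led by the receptor kinase AXL (-0.34, SE 0.03), the adhesion molecule ALCAM (-0.19, SE 0.03), MET (-0.16, SE 0.04), the NOTCH ligand JAG1 (-0.32, SE 0.08) and NRG1 (-0.18, SE 0.05). Of 21 tested matrix substrates 9 rose and 1, THBS1 (-0.38), fell (47.6% called against 20.8%), with a median of 0.21. Most tested genes of both substrate lists had a mean of at least 5 CPM, where 26.7% of genes were called. LAMB3 (0.88, SE 0.07), NID2 (1.07, SE 0.15), COL1A2 (1.33), TNC (0.49) and COL1A1 (0.30) led those that rose. The type IV collagen genes COL4A1 (-0.03, SE 0.04) and COL4A2 (0.03, SE 0.04) were among the 11 not called. So were NID1 (0.05, SE 0.05) and FN1 (-0.04, SE 0.03). The proteoglycan VCAN, a substrate of ADAMTS1, was not called (-0.04, SE 0.08, edgeR adjusted p = 0.74).

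Of 18 tested transcription factors known at MMP promoters, 7 rose and 3 fell (55.6% called against 20.8% of all genes), with a median of 0.10. Most of these factors had a mean of at least 5 CPM, where 26.7% of genes were called. EGR1 (0.85, SE 0.08), JUND (0.56, SE 0.06), RUNX2 (0.54, SE 0.08), JUNB (0.27, SE 0.05) and ETV1 (0.30, SE 0.06) led those that rose, and JUN (-0.16, SE 0.03), FOSL1 (-0.15, SE 0.03) and ETV4 (-0.13, SE 0.04) fell. Of the 7 AP-1 subunits tested, JUNB and JUND were higher, JUN and FOSL1 lower, and FOS (0.43, SE 0.22), FOSB (0.09, SE 0.43) and FOSL2 (0.06, SE 0.03) were not called. No list was tested as a set, and the lists were chosen with earlier results of these data known.

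**Figure D5:**
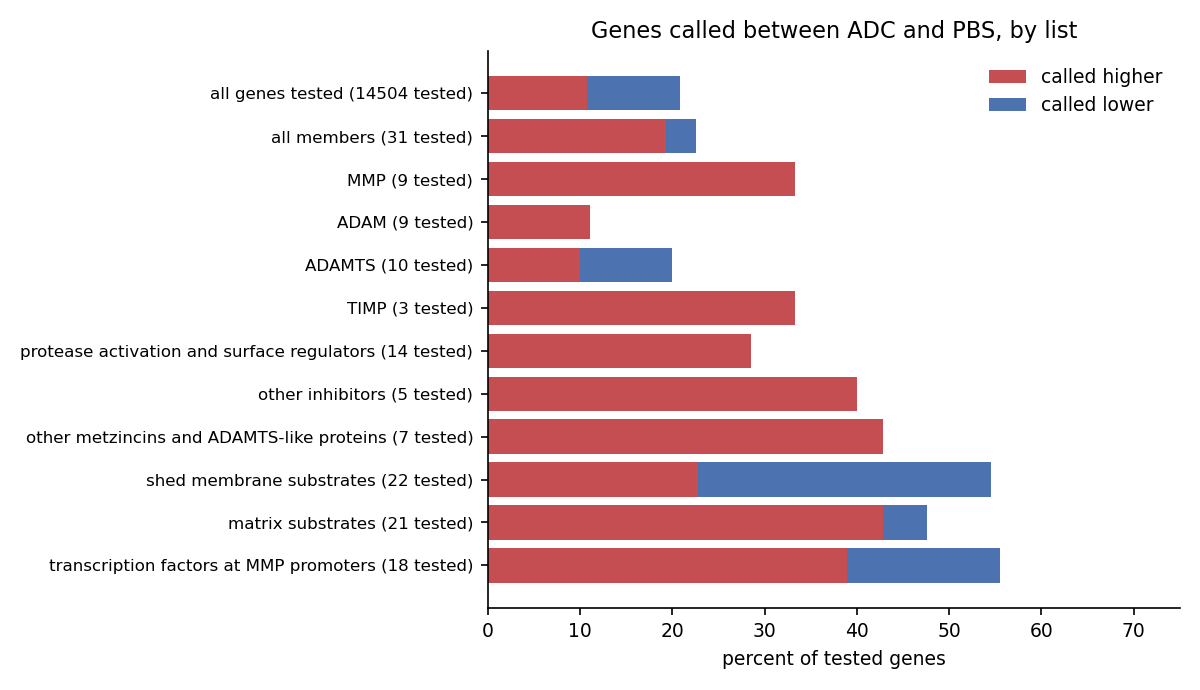
Percent of tested genes called higher (red) and lower (blue) after ADC, for all 14504 genes, for the members and their families, and for the 6 companion lists. The members are at 22.6% against 20.8% for all genes. The MMP, ADAM and TIMP families and the regulators, inhibitors and relatives have red bars alone. Among genes with a mean of at least 5 CPM, not drawn here, 26.7% were called. The companion lists were chosen with earlier results of these data known.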

How the data were processed

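Poly(A) RNA of CH157-MN cells was sequenced in 10 libraries. The authors deposited whole-number counts per gene, not normalised, with the position and length of each gene. HISAT2, HISAT and TopHat2 are named without a role, and the build hg38 with them, per the submitters' processing notes. No source used here names the counting tool, its strand setting or the annotation release, so antisense overlaps stay uncertain. All 58735 gene identifiers and their positions matched GENCODE 29, from which exon overlaps were taken.

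Groups were taken from the sample titles. The edgeR filter filterByExpr, at a minimum count of 10 and total of 15, left 14504 genes, and TMM factors were 0.979 to 1.017. ADC was compared with PBS in edgeR 4.0.16 under R 4.3.3 by its quasi-likelihood test. Tests were two-sided, and p-values were adjusted by Benjamini-Hochberg over all tested genes and called under 0.05. SE is the size of the log2 fold change over the square root of F, and 95% intervals use the t distribution with 8 degrees of freedom. CPM per kilobase divides by the deposited gene length, which for the members equals all annotated exons of a gene merged. Every tested member was named. Values per library were given for called members with an absolute log2 fold change of at least 0.3 or an adjusted p among the 12 smallest, and for tested MMPs and TIMPs. ADAM10 and ADAM17 were added after their values were seen. Of each companion list, up to 5 called genes per direction were named by smallest adjusted p. RHBDF2, BSG, VCAN, PAPLN, SPOCK1, CST3, COL4A1, COL4A2, NID1 and FN1 were added after their values were seen. Members and lists were chosen with earlier results of these data known.

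No replicate pair agreed within sampling noise (5.18 to 16.5 as chi-square over its degrees of freedom). On simulated counts for ADC against PBS (14504 genes, 3 simulations of 200 changed genes), edgeR recovered 44.0% of genes changed 1.2-fold and 83.6% of those changed 2-fold, with 4.92% false calls. DESeq2 made 9.89% false calls there. In the data 3018 genes were called, many more than the 200 changed per simulation, so these rates need not hold for the data. The alternatives were DESeq2 1.42.0, limma-voom (limma 3.58.1), RLE factors, library size alone, other filters, a replicate block, halved counts and leaving out each library.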

Additional observations from a re-analysis of the deposited data

Results flagged for a closer look

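With 5 libraries per group, a library was marked where its gap to the nearest other library took up more of its group's whole range than Dixon's 95% critical value allows. Of 62 groups of values for the 31 tested members, 5 were marked, and chance marks about 1 in 20. ADAMTS1 in PBS replicate 4 was at 286 CPM, where the other PBS libraries were at 263 to 267 CPM. MMP14 in ADC replicate 1 was at 444 CPM, where the other ADC libraries were at 410 to 418 CPM. Both calls held without that library. ADAM22 in PBS replicate 2 was at 1.84 CPM (others 3.32 to 3.85 CPM), ADAMTS2 in PBS replicate 5 at 0.118 CPM (others 0.647 to 0.862 CPM) and MMP9 in PBS replicate 4 at 0.141 CPM (others 0.715 to 0.854 CPM). Without the marked library, the log2 fold change was 0.16 in place of 0.31 for ADAM22, 0.13 in place of 0.40 for ADAMTS2 and 0.60 in place of 0.85 for MMP9.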

How the results depend on the processing

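Under 8 other settings and with each library left out, 2491 to 3362 genes were called, with 5 to 7 members higher and 1 lower. Leaving out 1 library at a time gave 2491 to 2980 genes and 5 to 7 higher members. Scaled to library size alone, 63.3% of called genes were higher instead of 51.8%, with 6 members higher and 1 lower as before. Of 551 values of single members, 535 kept their direction and side of the threshold, and the values of TIMP3, MMP2, MMP14, MMP17, ADAMTS12 and ADAMTS1 were among them in all 18 settings. The values that changed sign belonged to members that were not called. Their main log2 fold changes were 0.01 for ADAMTS9, -0.01 for MMP16, -0.08 for MMP15 and 0.20 for ADAMTS7. ADAMTS9 was at -0.02 with limma-voom and at -0.02 with the replicate block, MMP16 was at 0.01 with library size alone, and without single libraries ADAMTS9 ranged from -0.12 to 0.16, MMP16 from -0.04 to 0.01, ADAMTS7 from -0.14 to 0.39 and MMP15 from -0.16 to 0.03. The cause was not tested. Libraries of the same number did not vary together (correlations of -0.01 to 0.04), and the replicate block gave 3152 genes, 7 members higher and 1 lower, with MMP11 added at an adjusted p of 0.048. Members under about 3 CPM had standard errors of up to 0.51. How much of this comes from depth and how much from other spread between libraries was not tested.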
